A study of Mus musculus with 38 samples.

Results

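Promoters of 10 genes of myostatin, bone morphogenetic protein (BMP) and SMAD signalling were followed in the soleus muscle of torpid and non-torpid mice, namely Mstn, Acvr2b, Fst, Smad3, Smad6, Smad7, Id1, Id2, Id3 and Bambi. A promoter is a cluster of transcription start sites found by cap analysis of gene expression (CAGE), and it was assigned to a gene when its highest peak lay within 500 bp, on the same strand, of a 5′ end of that gene in the GENCODE vM21 annotation of the mm10 genome. By this rule 7 of the 10819 clusters belonged to the list, and 6 of the 10 genes had at least 1 of them. Smad3 had 2, and Fst, Smad6, Smad7, Id1 and Id3 had 1 each.

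The study asked which muscle promoters change in fasting-induced torpor, a state of low metabolism and body temperature, by non-amplified CAGE of 38 young adult male C57BL/6J mice, with 1 library per mouse. In experiment 1, the Pre mice (n = 4) were taken on day 1 with free access to food, the Mid mice (n = 8) on day 2 after food was withdrawn to bring on torpor, and the Post mice (n = 4) on day 3 after food was given back. Torpor also needs a low ambient temperature, at which the Mid and the Fed mice were kept. Torpor was prevented on day 2 in the HiT mice (n = 4), which were fasted at a high ambient temperature, and in the Fed mice (n = 4), whose food was left in place. The Dep mice (n = 4) were fasted on day 2 and touched gently whenever their oxygen consumption began to fall, which kept them from torpor. Food in the HiT and Fed groups is given as in the methods of the study, since the sample labels and the design text describe it otherwise. Experiment 2 was a second run with 2 Pre, 5 Mid and 3 Post mice. The Mid group is defined by the day and the fast, so a mouse of that group could be out of torpor when the muscle was taken. The muscle was sampled whole, so fewer cells of a type and less RNA per cell cannot be told apart.

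Ligands of the transforming growth factor β (TGF-β) family bind receptor kinases on the cell surface, and these phosphorylate SMAD proteins, which join SMAD4 and enter the nucleus to regulate genes. Myostatin (Mstn) and activins act through the receptor ACVR2B and through SMAD2 and SMAD3, and restrain muscle mass. BMPs act through SMAD1, SMAD5 and SMAD9, which favour muscle growth and switch on Id genes, and follistatin (Fst), SMAD6, SMAD7 and BAMBI hold the pathway back at successive steps. The soleus is a postural muscle rich in slow fibers.

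The RefSeq promoter table of GRCm38.p6, the assembly of mm10, held 3 of the 6 genes with a promoter, Id3, Smad3 and Smad6, each with 300 bases around the annotated start. They are shown because they cover the most active of the promoters (Id3), the Smad3 promoter that had no called change in experiment 1 while another start site of the same gene had several, and Smad6. Capitals mark matches to the motifs searched, on both strands. The SMAD-binding element was searched as CAGAC, and a pair of such elements in opposite directions as GTCTAGAC, which holds none of the other motifs. The BMP SMAD element was searched with the letters GGCGCC. The E box, bound by basic helix-loop-helix factors, was searched as CANNTG. The forkhead site was searched as GTAAACA. The TATA box, which places the start of many focused promoters, was searched with the letters TATAAA. The intervals, 5′ to 3′, are chr4:136143572-136143871 on the plus strand for Id3, chr9:63757945-63758244 on the minus strand for Smad3, and chr9:64022010-64022309 on the minus strand for Smad6.
Id3: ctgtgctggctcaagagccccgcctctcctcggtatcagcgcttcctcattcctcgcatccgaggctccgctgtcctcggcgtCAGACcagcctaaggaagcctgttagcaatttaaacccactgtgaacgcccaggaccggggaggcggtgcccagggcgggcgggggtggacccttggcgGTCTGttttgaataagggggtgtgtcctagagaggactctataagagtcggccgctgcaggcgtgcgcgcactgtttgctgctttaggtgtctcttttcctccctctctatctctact
Smad3 upstream promoter: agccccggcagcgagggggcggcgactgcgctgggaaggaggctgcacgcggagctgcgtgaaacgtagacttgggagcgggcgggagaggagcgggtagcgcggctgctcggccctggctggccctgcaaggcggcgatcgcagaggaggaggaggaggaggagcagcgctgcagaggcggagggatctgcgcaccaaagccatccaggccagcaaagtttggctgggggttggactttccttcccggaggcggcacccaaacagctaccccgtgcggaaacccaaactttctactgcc
Smad6: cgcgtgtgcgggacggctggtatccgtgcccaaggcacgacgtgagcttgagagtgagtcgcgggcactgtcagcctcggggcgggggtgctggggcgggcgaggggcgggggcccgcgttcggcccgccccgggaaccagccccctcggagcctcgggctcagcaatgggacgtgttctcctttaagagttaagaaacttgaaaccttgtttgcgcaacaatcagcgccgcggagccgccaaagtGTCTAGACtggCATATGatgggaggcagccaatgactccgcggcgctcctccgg
The Id3 window held CAGAC at bases 84 to 88 and, on the other strand, at bases 183 to 187. CAGAC occurred in 49.6% of all 32851 promoters of that table. The Smad6 window held GTCTAGAC at bases 247 to 254, a motif that was added to the search after these windows had been read and that 0.213% of the promoters held, and CANNTG at bases 258 to 263, which 72.3% held. The Smad3 window held none of the motifs. The letters of the BMP SMAD element occurred in 11.9%, of the forkhead site in 3.65% and of the TATA box in 13.6% of all promoters. None of these exact letters occurred in these 3. Near matches, such as tataag in the Id3 window, were not counted, so a TATA-like element is not excluded there. Counted from base 1 of each window, the CAGE peak lay at base 251 for Id3, at base 66 for the Smad3 upstream promoter and at base 354, beyond the window, for Smad6.

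Mstn, Acvr2b, Id2 and Bambi had no cluster by the 500 bp rule in the table used here, so these 4 genes were not analysed here. A wider look found 0 clusters on either strand within 20 kb of any of these genes. Whether their promoters lie among start sites outside this table was not analysed, and the values below come from an inhibitor of its ligand group, from SMADs and from target genes.

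The 7 promoters were those of Fst on chromosome 13 (114458504 to 114459004, minus strand), Smad3 on chromosome 9 (63757698 to 63758424 and 63666546 to 63666907, minus strand), Smad6 on chromosome 9 (64021894 to 64022208, minus strand), Smad7 on chromosome 18 (75367177 to 75367779, plus strand), Id1 on chromosome 2 (152736203 to 152736684, plus strand) and Id3 on chromosome 4 (136143773 to 136144176, plus strand). Their peaks lay between 1 bp (Fst) and 284 bp (the internal Smad3 promoter) from the nearest annotated start. Averaged over the 38 libraries, Id3 had 103.8 TPM as deposited by the authors and stood at percentile 89.5 of all promoters. The others had between 4.73 TPM (internal Smad3 promoter, percentile 5.3) and 11.3 TPM (upstream Smad3 promoter, percentile 33.6), beside a median of 17.35 TPM over all promoters. The lowest number of tags in a library was 20, at the internal Smad3 promoter, and the highest was 5950, at Id3. Levels below are tags per 1000000 tags in clusters after TMM scaling (CPM), and 1 tag stands for 1 RNA 5′ end, so levels of different genes need no correction for length. Tests are edgeR's quasi-likelihood F test with Benjamini-Hochberg adjustment over all promoters, and a promoter was called at an adjusted p under 0.05.

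**Figure D1:**
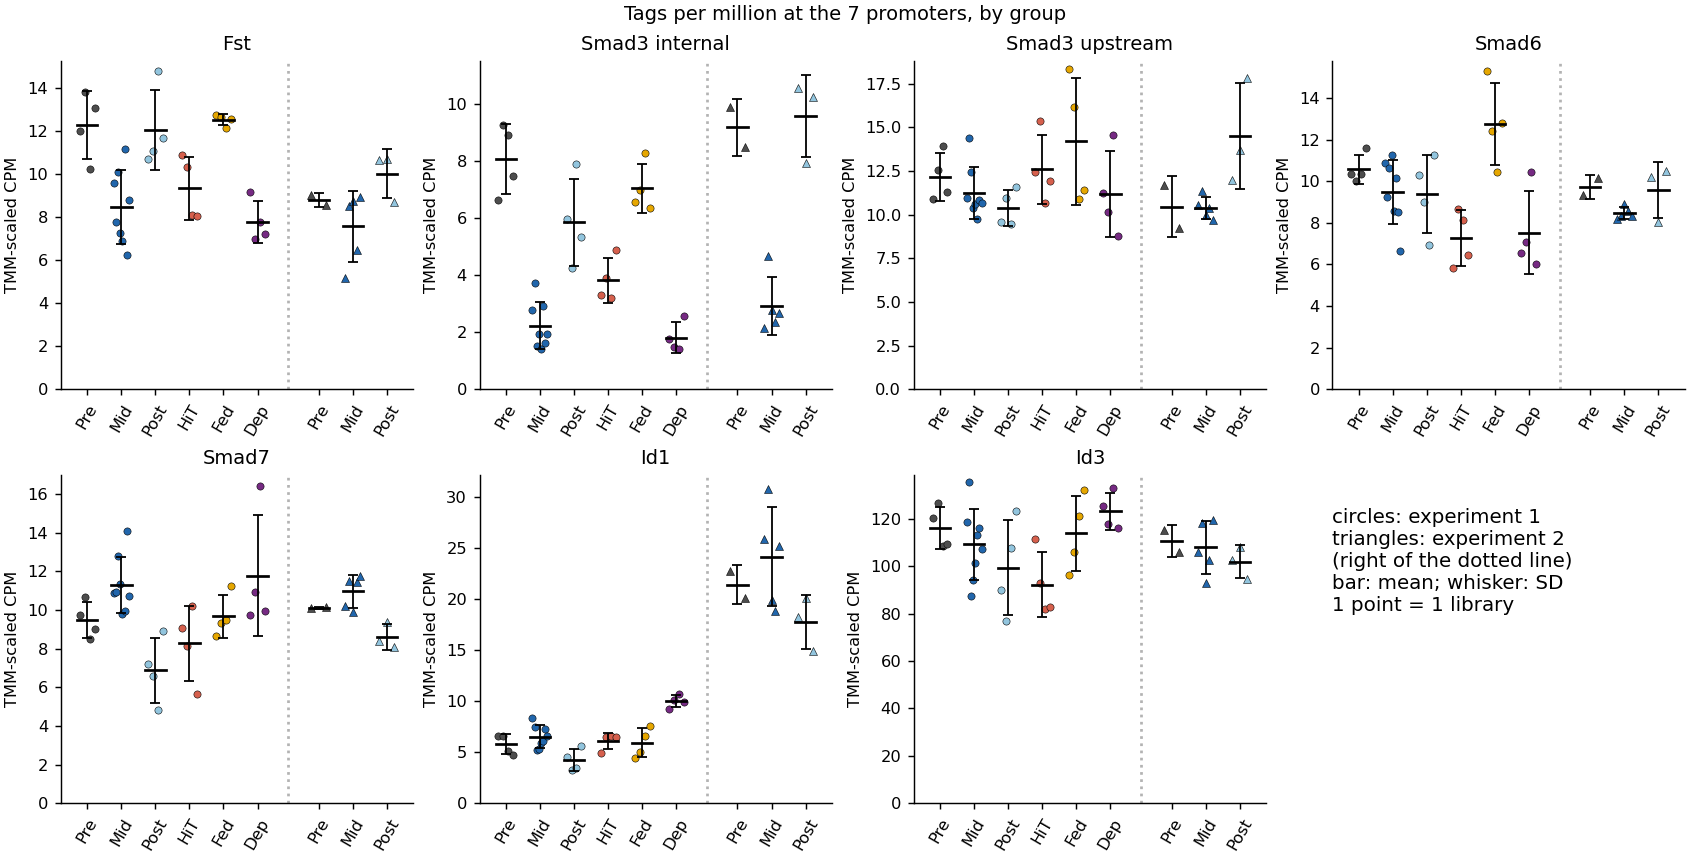
Level of each of the 7 promoters in TMM-scaled CPM (vertical axes, from 0) in every library, by group; circles are experiment 1, triangles to the right of the dotted line experiment 2, bars the mean and whiskers the SD. The internal Smad3 promoter lay at 1.40 to 3.73 CPM in the 8 Mid libraries and at 6.65 to 9.27 CPM in the 4 Pre libraries of experiment 1, and Id1 was higher in every library of experiment 2 than in any of experiment 1.

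Libraries of experiment 1 held between 18257657 and 39176649 tags in clusters and those of experiment 2 between 9359994 and 20914855. Markers of slow soleus fibers were present for 7 of 7 genes, with a summed level between 9360 and 13900 CPM in experiment 1. In experiment 2 this sum was higher, between 17800 and 27000 CPM. The sum of 7 fast muscle markers was 3680 to 8140 CPM in experiment 1 and 10100 to 13700 CPM in experiment 2. The HiT libraries stood apart in macrophage markers. Their summed level of 6 macrophage markers was 93.5 to 202 CPM, against 33.1 to 61.4 CPM in the other 24 libraries of experiment 1, and all 6 were called higher in HiT than in Pre. The seventh macrophage marker, Adgre1, had no cluster. Summed fibroblast and tendon markers (7 of 8 genes) reached 2270 to 5010 CPM in HiT and 1270 to 3010 CPM in the others, with an overlap. Of these 7, 1 was called higher and 1 lower in HiT than in Pre, and 2 higher and 0 lower in HiT than in Fed. In Mid, 0 were higher and 4 lower than in HiT. Summed smooth muscle and pericyte markers (5 of 6 genes) were 443 to 530 CPM in HiT. In the other groups of experiment 1 they were 535 to 767 CPM, without overlap. Of these 5, 0 were called higher and 2 lower in HiT than in Pre, and 1 higher and 2 lower than in Fed. In Mid, 3 were higher and 1 lower than in HiT. Of 4 red blood cell markers, 0 were higher and 3 lower in HiT than in Pre. These values go with every result on HiT below, and their part in it was not tested. The Mid and Dep libraries stood apart in the sum of satellite cell markers, of which 2 of 6 (Cdh15 and Sdc4) had a cluster. This sum was 144 to 310 CPM in Mid and 196 to 252 CPM in Dep, against 88.5 to 142 CPM in the other groups of experiment 1. Sdc4 averaged 133 TPM and Cdh15 14.7 TPM, so the sum mostly follows Sdc4. Of the 2, 1 was called higher and 0 lower in Mid and in Dep than in Pre. Against Fed, 1 was higher and 1 lower in Mid and in Dep. In experiment 2 the sum was 160 to 192 CPM in Mid and 88.9 to 119 CPM in Pre and Post. The part of these markers in the differences of Mid and Dep below was not tested. The Fed libraries differed too. All 4 red blood cell markers with a cluster were called lower than in Fed in Mid, HiT and Dep. Of 7 fast muscle markers, 1, 4 and 2 were called lower than in Fed in Mid, HiT and Dep, and 0 higher. Their part in the differences from Fed was not tested.

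From Pre to Mid, 2 of the 7 promoters were called lower and 0 higher, where 30.2% of all promoters were called, 14.8% lower and 15.4% higher. From Mid to Post, 2 were called higher and 2 lower, where 35.0% of all were called and 17.5% in each direction. Between Mid and HiT, 1 was higher and 1 lower in Mid, beside 19.2% and 21.8% of all (41.0% in either direction). Between Mid and Fed, 0 were higher and 3 lower in Mid, beside 16.6% and 18.6% of all (35.2%). Dep differed from Mid at 1 promoter, which was higher, beside 1.16% of all higher and 0.872% lower (2.03%). In Dep against Pre, 1 was higher and 3 were lower, beside 13.7% and 12.1% of all (25.8%). In HiT against Pre, 0 were higher and 2 lower, beside 18.5% and 14.9% (33.4%), and in HiT against Fed 0 and 3, beside 23.3% and 20% (43.2%). With 7 promoters, these counts cannot be set apart from the shares over all promoters. Fed against Pre and Post against Pre had 0 of 7 calls by edgeR and by DESeq2, beside 11.2% (5.88% higher and 5.32% lower) and 1.85% (1.05% higher and 0.798% lower) of all promoters by edgeR, and 0 and 2 of the 7 had an unadjusted p under 0.05. In experiment 2, 0 promoters were higher and 1 lower in Mid than in Pre, beside 5.3% and 4.44% of all (9.74%), and from Mid to Post 2 were higher and 1 lower, beside 7.73% and 8.65% (16.4%). The other 5 pairs of groups in experiment 1 were compared after seeing the data. Dep had 2 promoters higher and 2 lower than Post (13.3% and 11.3% of all, 24.6% together), 3 higher and 1 lower than HiT (11.3% and 15.3%, 26.5%) and 1 higher and 3 lower than Fed (18.6% and 20%, 38.6%). Post had 0 higher and 1 lower than HiT (12.5% and 16.7%, 29.2%) and 0 called by edgeR against Fed (10.7% and 11.5%, 22.2%), where 4 of the 7 had an unadjusted p under 0.05 and 3 were called by DESeq2. The comparisons with Mid share the Mid libraries, and those with Pre the Pre libraries, so their values are set side by side and are not independent.

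**Figure D2:**
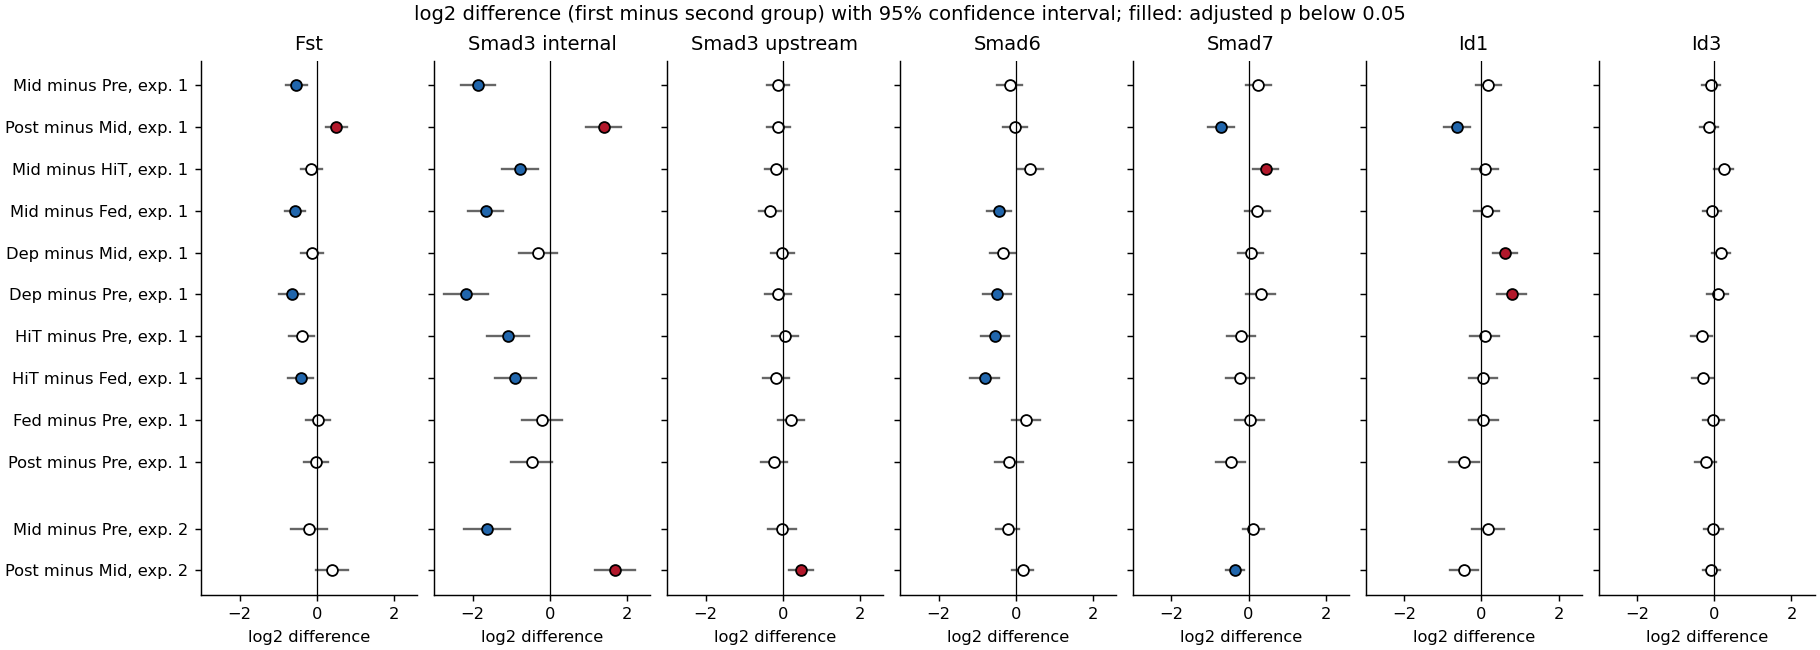
log2 difference of each promoter (horizontal axes, first group minus second) with its 95% confidence interval in 12 comparisons (rows); filled circles passed an adjusted p of 0.05, red higher and blue lower in the first group. The internal Smad3 promoter was called in 9 of the 12 comparisons and the upstream one in 1, and Id3 in none.

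Follistatin binds myostatin and activins outside the cell and keeps them from their receptors. The Fst promoter was lower in the fasted Mid mice than in Pre and Post of experiment 1. In experiment 1 the Pre libraries had 11.97, 13.8, 10.2 and 13.1 CPM, and the 8 Mid libraries ran from 6.25 over a median of 8.27 to 11.2 CPM. The Post libraries had 10.7, 11.1, 14.8 and 11.7 CPM. Most Mid values lay below those of Pre and Post, with a small overlap of the ranges on both sides. The level fell by 0.54 on the log2 scale from Pre to Mid (SE 0.13, adjusted p = 0.0029 by edgeR) and was higher by 0.51 in Post than in Mid (SE 0.13, adjusted p = 0.0039). Post and Pre differed by a log2 of -0.03 (95% interval -0.34 to 0.29). Promoters that fell from Pre to Mid and rose again to Post made up 10.8% of all, and Fst and the internal Smad3 promoter were among them.

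Among the mice of day 2, Fst was highest in the Fed group. The Fed libraries had 12.7, 12.6, 12.1 and 12.5 CPM, all above the highest Mid value of 11.2 CPM. In HiT the values were 10.9, 10.3, 8.07 and 8.05 CPM, and in Dep 9.16, 6.98, 7.78 and 7.23 CPM. The fasted groups, with or without torpor, lay below the Fed group without overlap. Fst was lower in Mid than in Fed by a log2 of 0.56 (log2 difference -0.56, SE 0.13, adjusted p = 0.0017 by edgeR) and lower in Dep than in Pre (log2 difference -0.65, SE 0.16, adjusted p = 0.0027). Mid and HiT differed by -0.14 (95% interval -0.42 to 0.13 on the log2 scale) and Dep and Mid by -0.12 (-0.40 to 0.16), neither of which was called. HiT was lower than Fed (log2 difference -0.42, adjusted p = 0.030 by edgeR), a call that ended without HiT 3, HiT 4, Fed 1, Fed 2 or Fed 4 (log2 difference -0.42 to -0.35, adjusted p 0.052 to 0.089). In experiment 2 Fst had 9.04 and 8.57 CPM in Pre, 5.16, 8.51, 8.74, 6.46 and 8.93 CPM in Mid, and 10.7, 10.7 and 8.69 CPM in Post. Its groups overlapped there, and neither difference was called (log2 -0.21 from Pre to Mid and 0.39 from Mid to Post, adjusted p = 0.60 and 0.18 by edgeR).

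SMAD3 carries the signal of myostatin, activins and TGF-β into the nucleus, and its gene had a pair of promoters that differed in these mice. The upstream promoter peaks at 63758179, 185 bp before the annotated start of the transcript Smad3-201, which has 9 exons. The internal promoter peaks 91.3 kb further downstream, at 63666831, within intron 3 of Smad3-201. The nearest annotated transcript there is Smad3-204, whose 5′ end lies 284 bp downstream of the peak, and its annotated start codon is in exon 4 of Smad3-201. This codon is in frame with the 425 codons of Smad3-201 and leaves out the first 195 of them. The MH1 domain, by which SMAD3 binds DNA, is at the N-terminal end of the protein. The tags mark 5′ ends alone, so which exons follow the internal start was not measured.

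**Figure D3:**
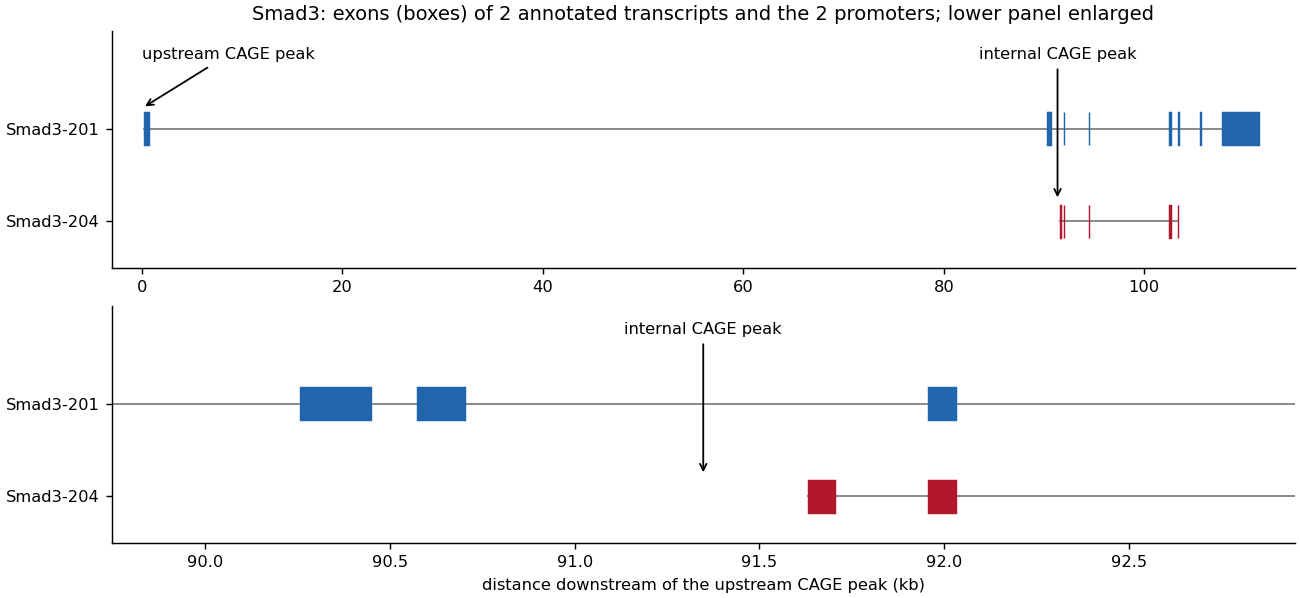
Map of Smad3 with boxes for the exons of the transcripts Smad3-201 (blue) and Smad3-204 (red); the horizontal axes give the distance downstream of the upstream CAGE peak in kb, and the lower panel enlarges the region of the internal peak. The internal peak lies 91.3 kb downstream, between exons 3 and 4 of Smad3-201 and 284 bp before the first exon of Smad3-204.

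The internal Smad3 promoter fell from Pre to Mid and was the promoter of the list with the greatest change. In experiment 1 the Pre libraries had 6.65, 9.27, 8.93 and 7.49 CPM, and the 8 Mid libraries ran from 1.40 over a median of 1.93 to 3.73 CPM. The Post libraries had 5.97, 4.24, 7.88 and 5.33 CPM. The Mid values lay below all Pre and all Post values, and those of Post partly overlapped those of Pre. The mean was 8.08 ± 1.23 CPM in Pre, 2.23 ± 0.83 CPM in Mid and 5.86 ± 1.53 CPM in Post (SD, n = 4, 8 and 4), a 3.63-fold lower level in Mid than in Pre (log2 difference -1.86, SE 0.22, adjusted p = 9.118e-07 by edgeR). From Mid to Post it rose 2.63-fold (log2 difference 1.40, SE 0.22, adjusted p = 2.356e-05 by edgeR). Post remained below Pre by a log2 difference of -0.47 with a 95% interval from -0.99 to 0.06, which was not called.

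In the groups in which torpor was prevented, the internal promoter ranged from the level of Pre to that of Mid. The Fed libraries had 6.55, 6.98, 8.28 and 6.34 CPM, the HiT libraries 3.29, 3.90, 3.18 and 4.88 CPM, and the Dep libraries 1.77, 1.47, 1.41 and 2.58 CPM. Fed overlapped Pre, HiT stood between Mid and Post with a small overlap with each, and Dep lay within the range of Mid. Mid was lower than Fed (log2 difference -1.66, SE 0.22, adjusted p = 2.743e-06 by edgeR) and lower than HiT (log2 difference -0.77, SE 0.23, adjusted p = 0.0078), the latter no longer called without HiT 4 (log2 difference -0.60, adjusted p = 0.061). HiT was itself lower than Pre (log2 difference -1.09, SE 0.26, adjusted p = 0.0021 by edgeR) and than Fed (log2 difference -0.89, SE 0.26, adjusted p = 0.0079). Ordered by mean level, the groups ran from Pre over Fed (7.04 CPM), Post, HiT (3.81 CPM) and Mid to Dep (1.81 CPM). Of the neighbours in this order only HiT and Mid were called different. For Dep against Mid the log2 difference was -0.30 with a 95% interval from -0.80 to 0.20. By the fit used here, the internal promoter met the definition of a torpor-specific lower promoter, as did 3.62% of all promoters. Such a promoter is reversible and lower in Mid than in both HiT and Fed. The study's own list of torpor-specific promoters, from its own fit and set of clusters, was not compared.

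Experiment 2 gave the same direction in other mice. The Pre libraries had 9.89 and 8.48 CPM, the Mid libraries 2.15, 4.68, 2.79, 2.34 and 2.67 CPM, and the Post libraries 10.6, 7.93 and 10.3 CPM, with no overlap between Mid and the other groups. The log2 difference was -1.63 from Pre to Mid (SE 0.27, adjusted p = 0.0049 by edgeR) and 1.69 from Mid to Post (SE 0.24, adjusted p = 0.00099). Without Pre 5, which leaves 1 Pre library, the first had an adjusted p of 0.060 by edgeR and a log2 difference of -1.52. The Post libraries and Mid 13 were run on another lane than the rest. With lane as a term, chosen after seeing the data, both differences of this promoter were still called. Mid 13 is the only Mid library on the lane of Post, so the Mid to Post difference then rests on it and cannot set lane apart.

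The upstream Smad3 promoter showed no called change in experiment 1. The Pre libraries had 10.9, 12.5, 13.9 and 11.3 CPM, the 8 Mid libraries ran from 9.75 over a median of 10.7 to 14.4 CPM, and the Post libraries had 9.56, 10.95, 9.49 and 11.6 CPM. In the day 2 controls the values were 12.4, 15.4, 10.7 and 11.9 CPM in HiT, 18.3, 16.2, 10.9 and 11.4 CPM in Fed, and 11.2, 10.2, 14.6 and 8.79 CPM in Dep. All 6 groups overlapped. The log2 difference from Pre to Mid was -0.11 with a 95% interval from -0.40 to 0.18, and from Mid to Post it was -0.11 (-0.40 to 0.18), so changes of the size seen at the internal promoter lay outside these intervals. In experiment 2 it had 11.7 and 9.22 CPM in Pre, 10.5, 11.4, 9.99, 10.4 and 9.68 CPM in Mid and 11.96, 13.7 and 17.9 CPM in Post. There Post was higher than Mid (log2 difference 0.48, SE 0.14, adjusted p = 0.040 by edgeR). This call ended without any 1 of Mid 9, 11, 12 or 13 or Post 6 or 7 (log2 difference 0.30 to 0.52, adjusted p 0.069 to 0.18) and with lane as a term.

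The share of Smad3 tags that came from the internal promoter gives the same comparison within each library, free of scaling between libraries. In Pre it was 37.9, 42.5, 39.1 and 39.9%, and in the 8 Mid libraries it ran from 10.8 over a median of 15.5 to 23.1%. In Post it was 38.4, 27.9, 45.4 and 31.5%. The Mid shares lay below all those of Pre and Post. The Fed shares were 26.3, 30.2, 43.1 and 35.8%, the HiT shares 20.9, 20.2, 23.0 and 29%, and the Dep shares 13.6, 12.6, 8.85 and 22.7%. Fed stood above all Mid libraries, whereas HiT and Dep overlapped Mid. Counting error alone gave single libraries a 95% Wilson interval between 5.23 and 14.1 percentage points wide.

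By a two-sided exact permutation test over libraries, chosen after seeing the data and adjusted over 12 comparisons, the mean share was 23.5 percentage points lower in Mid than in Pre (a difference of -23.5 points; exact p = 0.00202, adjusted p = 0.00808), and it was lower than in Post (Post minus Mid 19.5 points) and than in Fed (Mid minus Fed -17.6 points) with the same p. This exact p of 0.00202 is the smallest that 8 against 4 libraries allow. Mid and HiT differed by -6.98 points (exact p = 0.0343, adjusted p = 0.0589) and Dep and Mid by -1.85 points (exact p = 0.556, adjusted p = 0.556). HiT and Dep were below Pre without overlap, by -16.6 and -25.4 points, each with the smallest exact p that 4 against 4 libraries allow, 0.0286 (adjusted p = 0.0571). In experiment 2 the shares were 45.8 and 47.9% in Pre, 16.9, 29.2, 21.8, 18.4 and 21.6% in Mid, and 46.9, 36.7 and 36.5% in Post, and Mid again lay below both without overlap. Those differences were -25.3 points from Pre to Mid (exact p = 0.0476, the smallest for 5 against 2 libraries, adjusted p = 0.0714) and 18.4 points from Mid to Post (exact p = 0.0179, the smallest for 3 against 5, adjusted p = 0.0536).

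**Figure D4:**
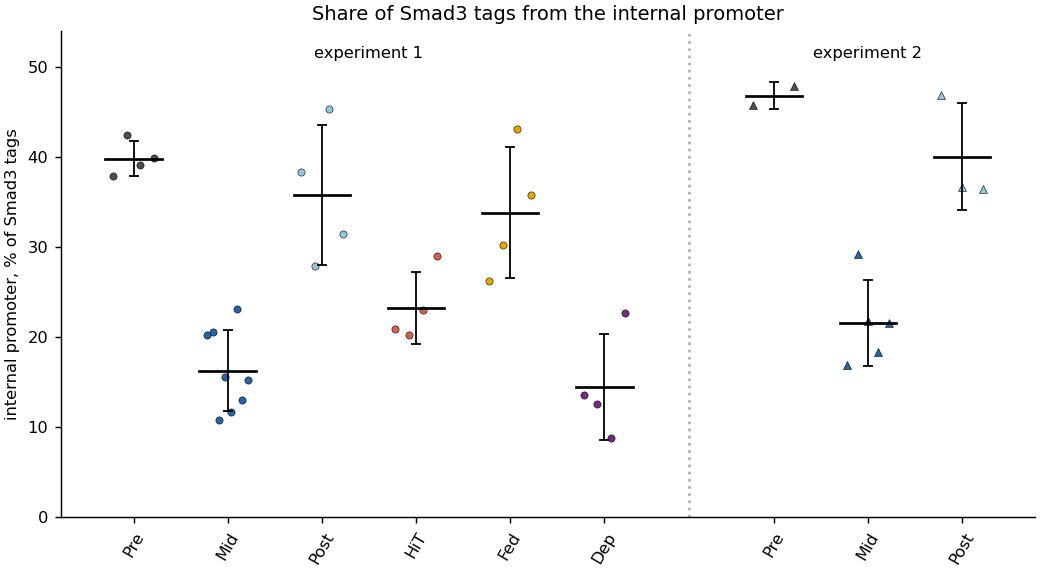
Internal promoter as a percentage of the tags of both Smad3 promoters (vertical axis) in every library, by group, with experiment 1 as circles on the left and experiment 2 as triangles on the right; bars are means and whiskers SDs. Mean shares were 39.8% in Pre, 16.3% in Mid, 35.8% in Post, 23.3% in HiT, 33.8% in Fed and 14.4% in Dep.

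SMAD6 and SMAD7 are the inhibitory SMADs, which block the receptors and the receptor-regulated SMADs, SMAD6 mainly for BMP signals. Smad6 differed among the groups of day 2. Its Fed libraries had 15.3, 12.4, 10.5 and 12.8 CPM, its HiT libraries 5.84, 8.69, 8.15 and 6.44 CPM, and its Dep libraries 6.56, 7.07, 10.5 and 6.01 CPM. Every Fed value lay above every HiT value. Pre had 10.4, 10, 10.3 and 11.6 CPM, Mid ran from 6.66 over a median of 9.68 to 11.3 CPM, and Post had 10.3, 9.001, 6.92 and 11.3 CPM, so these groups overlapped. HiT was lower than Fed (log2 difference -0.80, SE 0.18, adjusted p = 0.00084 by edgeR). It was also lower than Pre (log2 difference -0.54, adjusted p = 0.022), which was no longer called without Pre 4, HiT 1 or HiT 4 (log2 difference -0.51 to -0.46, adjusted p 0.052 to 0.070). Smad6 differed between Mid and Pre by a log2 of -0.16 (95% interval -0.47 to 0.16), which was not called.

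Dep was also lower than Fed (log2 difference -0.75, SE 0.18, adjusted p = 0.0020 by edgeR), a call that no single left-out library ended. A pair of further Smad6 calls rested on single libraries. Mid was lower than Fed (log2 difference -0.42, adjusted p = 0.031 by edgeR), but not when any 1 of Mid 2, 5, 7 or 8 or Fed 1, 2 or 4 was left out (log2 difference -0.44 to -0.33, adjusted p 0.051 to 0.14). Dep was lower than Pre (log2 difference -0.49, adjusted p = 0.047 by edgeR), but not without any 1 of Pre 1 to 4 or Dep 1, 2 or 4 (log2 difference -0.51 to -0.39, adjusted p 0.066 to 0.16). The endothelial markers, a cell type in which Smad6 is active, summed to 400 to 437 CPM in Fed, 343 to 412 CPM in HiT, 348 to 415 CPM in Mid and 341 to 402 CPM in Pre for 9 of 10 genes. Of these 9, 1 was called higher and 5 lower in HiT than in Fed, 2 and 5 in Mid and in Dep against Fed, 2 and 3 in Dep against Pre, and 1 and 3 in HiT against Pre. Their part in the Smad6 results was not tested. In experiment 2 Smad6 had 9.32 and 10.1 CPM in Pre, 8.17, 8.32, 8.88, 8.58 and 8.34 CPM in Mid and 10.2, 8.03 and 10.5 CPM in Post, with no call.

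Smad7 was lower after torpor. The Pre libraries had 9.76, 10.7, 8.48 and 9.03 CPM, the 8 Mid libraries ran from 9.80 over a median of 10.9 to 14.1 CPM, and the Post libraries had 7.22, 6.601, 4.83 and 8.91 CPM. All Mid values lay above all Post values, whereas Mid and Pre overlapped. From Mid to Post the level fell by 0.71 on the log2 scale (SE 0.16, adjusted p = 0.0012 by edgeR), and from Pre to Mid the log2 difference was 0.25 (95% interval -0.07 to 0.58), which was not called. Post and Pre differed by -0.46 (95% interval -0.83 to -0.08, adjusted p = 0.25). In experiment 2 the values were 10.1 and 10.1 CPM in Pre, 10.2, 11.5, 9.91, 11.5 and 11.8 CPM in Mid and 8.40, 9.37 and 8.06 CPM in Post. Post again lay below Mid without overlap, with a log2 difference of -0.35 (SE 0.11, adjusted p = 0.049 by edgeR), a call that ended when any 1 Mid or Post library other than Mid 11 was left out (log2 difference -0.41 to -0.31, adjusted p 0.063 to 0.15) and in 7 of 9 other settings, among them DESeq2, the other scalings and lane as a term. On day 2, Smad7 had 9.07, 8.14, 10.2 and 5.64 CPM in HiT, 8.63, 9.32, 9.51 and 11.2 CPM in Fed and 9.77, 10.9, 16.4 and 9.95 CPM in Dep, all overlapping Mid. Mid was above HiT (log2 difference 0.45, SE 0.16, adjusted p = 0.026 by edgeR), which was not called without Mid 7, HiT 2 or HiT 4 (log2 difference 0.34 to 0.44, adjusted p 0.051 to 0.10).

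The ID proteins pair with basic helix-loop-helix factors and keep them from binding DNA, and Id1 and Id3 are direct targets of BMP signalling. Id1 was highest in the torpor-deprived mice. The Dep libraries had 9.24, 10.1, 10.7 and 9.90 CPM, the 8 Mid libraries ran from 5.18 over a median of 6.36 to 8.35 CPM, and the Pre libraries had 6.58, 6.6, 5.15 and 4.75 CPM. Every Dep value lay above every other library of experiment 1. Dep exceeded Pre by a log2 of 0.79 (SE 0.18, adjusted p = 0.0021 by edgeR). Over Mid the log2 difference was 0.61 (SE 0.15, adjusted p = 0.038), a call that ended without any 1 of Mid 3, 4, 5 or 8 or Dep 1 to 4 (log2 difference 0.57 to 0.65, adjusted p 0.053 to 0.12). Of the endothelial markers, in whose cells Id1 is active, 0 of 9 were called between Dep and Mid, whereas 2 were higher and 3 lower in Dep than in Pre, and they summed to 370 to 410 CPM in Dep. Their part in the Id1 result was not tested.

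Id1 was lowest after torpor. The Post libraries had 4.56, 3.26, 3.42 and 5.60 CPM, below the median of Mid and with a small overlap of the ranges. From Mid to Post it fell by 0.63 on the log2 scale (SE 0.16, adjusted p = 0.0041 by edgeR), which was not called with library size only (log2 difference -0.59, adjusted p = 0.054). Pre and Mid differed by a log2 of 0.17 (95% interval -0.15 to 0.50). In the HiT libraries it had 4.96, 6.48, 6.56 and 6.49 CPM and in the Fed libraries 4.47, 5.06, 6.56 and 7.56 CPM, both within or near the range of Mid and with no call against Mid. In experiment 2 Id1 had 22.7 and 20.1 CPM in Pre, 25.9, 30.8, 19.9, 18.8 and 25.2 CPM in Mid and 18.2, 20.1 and 14.9 CPM in Post. These groups overlapped, with log2 differences of 0.18 from Pre to Mid and -0.45 from Mid to Post (adjusted p = 0.62 and 0.093 by edgeR).

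Id3, the most active promoter of the list, was not called in any of the 12 comparisons. In experiment 1 the Pre libraries had 120.3, 126.5, 108.4 and 109.4 CPM, the 8 Mid libraries ran from 87.6 over a median of 110.1 to 135.5 CPM, and the Post libraries had 89.9, 77.0, 107.5 and 123.1 CPM. HiT had 111.3, 92.8, 81.9 and 82.8 CPM, Fed 96.4, 106.1, 121.3 and 132.0 CPM, and Dep 125.4, 117.9, 133.1 and 116.1 CPM. All of these groups overlapped Mid. With 923 or more tags in every library, the intervals were narrow, and the log2 difference from Pre to Mid was -0.09 (95% interval -0.33 to 0.15). Dep and HiT, a pair compared after seeing the data, did not overlap (log2 difference 0.42, SE 0.13, adjusted p = 0.022 by edgeR, beside 11.3% of all promoters higher in Dep), a call that ended without Dep 3 (log2 difference 0.38, adjusted p = 0.061). In experiment 2 Id3 had 115.3 and 105.8 CPM in Pre, 92.95 to 119.7 CPM in Mid and 94.6 to 108.3 CPM in Post.

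Between the experiments, the changes of the 7 promoters were not called different, whereas the levels of some were. The interaction of experiment with Pre to Mid and with Mid to Post was called for 0 of 7 promoters by edgeR and by DESeq2, beside 0.0% of all promoters by edgeR, and at an unadjusted p under 0.05 for 0 and 1 of the 7 and for 515 and 563 of all. The 1 was the upstream Smad3 promoter, whose Mid to Post difference was greater in experiment 2 by a log2 of 0.57 (SE 0.17, adjusted p = 0.86). Over the Pre, Mid and Post libraries, Id1 was 3.70-fold higher in experiment 2 (log2 difference 1.89, SE 0.10, adjusted p = 9.239e-16 by edgeR). In this comparison, added after seeing the data, 3 of the 7 promoters and 74.9% of all were called. Mice, run and depth differ between the experiments, and the methods of the study name both a NextSeq and a HiSeq sequencer. The lane is not given for experiment 1. These factors cannot be told apart. The other 2 were the internal Smad3 promoter (log2 difference 0.41, adjusted p = 0.025) and Fst (log2 difference -0.30, adjusted p = 0.010). Of 7 slow fiber markers, 4 were called higher and 2 lower in experiment 2, and of 7 fast muscle markers 2 higher and 4 lower. The part of these markers in the level differences was not tested.

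Across the 28 libraries of experiment 1, Pearson's r between log2 levels of the 21 pairs of promoters ran from -0.559 to 0.797. It is given as a description, since the points share groups and scaling. The highest was between Fst and the internal Smad3 promoter, and the lowest between the internal Smad3 promoter and Smad7. The pair of Smad3 promoters had an r of 0.221. Smad7 and Id1 had 0.638 and Id1 and Id3 0.575. Among 10504 promoters, those of other genes most like the internal Smad3 promoter were of Igfbp5 (r = 0.919), Itgb6 (r = 0.917) and Kbtbd13 (r = 0.915). For Fst they were Gypc (r = 0.89), Serpine2 (r = 0.886) and Cd81 (r = 0.876), and for the upstream Smad3 promoter Irf2bpl (r = 0.822), Fance (r = 0.819) and Sned1 (r = 0.799). Those of Smad6 were Rreb1 (r = 0.84), Sh3pxd2a (r = 0.837) and Unc5b (r = 0.83), and those of Smad7 were Josd1 (r = 0.859), Sidt2 (r = 0.833) and Pptc7 (r = 0.825). The nearest of Id1, B9d2 (r = 0.755), Rusc1 (r = 0.75) and Txnrd1 (r = 0.749), and of Id3, Sox18 (r = 0.627), Nedd9 (r = 0.617) and Akr1b3 (r = 0.609), were less alike.

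Of 98 further genes of the pathway, 59 had a promoter in the table, and the most active promoter of each was taken. From Pre to Mid in experiment 1, 10 of the 59 were called higher and 3 lower, beside 15.4% and 14.8% of all promoters. By list, 5 of the 15 partners and targets of SMADs were higher and 0 lower, and of the 16 intracellular inhibitors and turnover genes 1 was higher. The lowest p values among the higher genes were those of Fbxo30, a ubiquitin ligase of muscle atrophy under BMP control (16.4 CPM in Pre and 39.2 CPM in Mid, log2 difference 1.26, SE 0.15), Klf11, a TGF-β-inducible repressor (4.76 and 10.1 CPM, log2 difference 1.08, SE 0.15), and Tob2, of a family of antiproliferative proteins that bind SMADs (14.6 and 25.6 CPM, log2 difference 0.81, SE 0.14). The 3 lower ones were the BMP co-receptors Hfe2 (hemojuvelin, 190 and 148 CPM, log2 difference -0.37), Rgmb (log2 difference -0.30) and Rgma (log2 difference -0.34). Of 12 receptors 3 were higher and 3 lower, of 5 ligands 1 was higher, and of the 4 other SMADs and the 7 extracellular inhibitors 0 were called. The median log2 difference was 0.00 over the 59 genes, -0.11 over the 7 promoters of the list and 0.01 over all promoters.

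From Mid to Post, 4 of the 59 were higher and 16 lower, beside 17.5% of all promoters in each direction. Hdac4, a muscle histone deacetylase (log2 difference 0.93, SE 0.17), Rgmb (0.35, SE 0.10) and the ligand Tgfb2 (0.69, SE 0.20) had the lowest p values of the higher ones. Fbxo30 (log2 difference -1.27, SE 0.15), Ccn2, a TGF-β target that codes for connective tissue growth factor (-1.69, SE 0.26), and Tob2 (-0.90, SE 0.14) had those of the lower ones. In experiment 2, 6 were higher and 2 lower from Pre to Mid, beside 5.3% and 4.44% of all promoters, and 4 were higher and 6 lower from Mid to Post, beside 7.73% and 8.65%. Ccn2 rose from a mean of 111 CPM in Pre to 354 CPM in Mid there (log2 difference 1.68, SE 0.15), and Tob2 from 33.3 to 59.1 CPM (log2 difference 0.83, SE 0.11). The co-receptor Tgfbr3 was higher as well (log2 difference 0.67), and Rgma (-0.53) and the BMP receptor Bmpr1a (-0.46) were the 2 lower genes. From Mid to Post of experiment 2, Hdac4 (log2 difference 1.09), Tgfb2 (0.83) and Bmpr1a (0.42) were higher, and Ccn2 (-1.25) and Tob2 (-0.74) lower.

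Among the mice of day 2, Mid differed from Fed at 12 higher and 16 lower genes of the 59, beside 16.6% and 18.6% of all promoters. Tob2 (log2 difference 0.98) and Fbxo30 (0.97) were higher in Mid, and Hdac4 (-0.91), Rgmb (-0.51) and Hfe2 (-0.31) lower. From HiT, Mid differed at 16 higher and 11 lower genes, beside 19.2% and 21.8% of all promoters. Fbxo30 (log2 difference 0.73), Tob2 (0.71) and Hfe2 (0.49) were higher in Mid. Fstl1, a secreted relative of follistatin, had 106 CPM in HiT and 31.2 CPM in Mid (log2 difference of Mid minus HiT -1.76, SE 0.14). Tgfbi, a TGF-β-induced matrix gene, was also lower in Mid (-1.24). The part of the macrophage, fibroblast and smooth muscle markers of HiT in these differences was not tested. Dep and Mid differed at 1 of the 59 genes, beside 2.03% of all promoters. This was the activin receptor Acvr1b (log2 difference -0.75, SE 0.17, adjusted p = 0.027 by edgeR). It had a mean of 15 CPM in Dep (11.3 to 17.9) and 25.3 CPM in Mid (12.8 to 32.9), with an overlap. Its means were 16.7 CPM in Pre, 15.5 CPM in Post, 18.3 CPM in HiT and 18.2 CPM in Fed, so Mid was the group apart. Mid was also called higher than Pre (log2 difference 0.60), and Post lower than Mid (-0.71).

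HiT against Fed had 10 higher and 18 lower genes of the 59, beside 23.3% and 20% of all promoters, with the transcription factor Runx1 (log2 difference 2.02) and Fstl1 (1.34) higher and Hfe2 (-0.79), the ubiquitin ligase Wwp1 (-0.90) and the BMP-binding protein Twsg1 (-0.58) lower. HiT against Pre had 11 higher and 8 lower, beside 18.5% and 14.9%, with Runx1 (log2 difference 1.68) and Fstl1 (1.47) higher and Hfe2 (-0.85), Tob1 (-0.51) and the transcriptional repressor Hey1 (-0.80) lower. Dep against Pre had 7 higher and 6 lower, beside 13.7% and 12.1%, with Fbxo30 (log2 difference 1.33) and Klf11 (0.98) higher and Hfe2 (-0.52), Rgma (-0.54) and Smad2 (-0.47) lower. Fed against Pre had 4 higher and 0 lower, beside 5.88% and 5.32%, with Wwp1 (log2 difference 0.55), the activin receptor Acvr2a (0.40) and the BMP receptor Bmpr2 (0.36) among the higher.

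**Figure D5:**
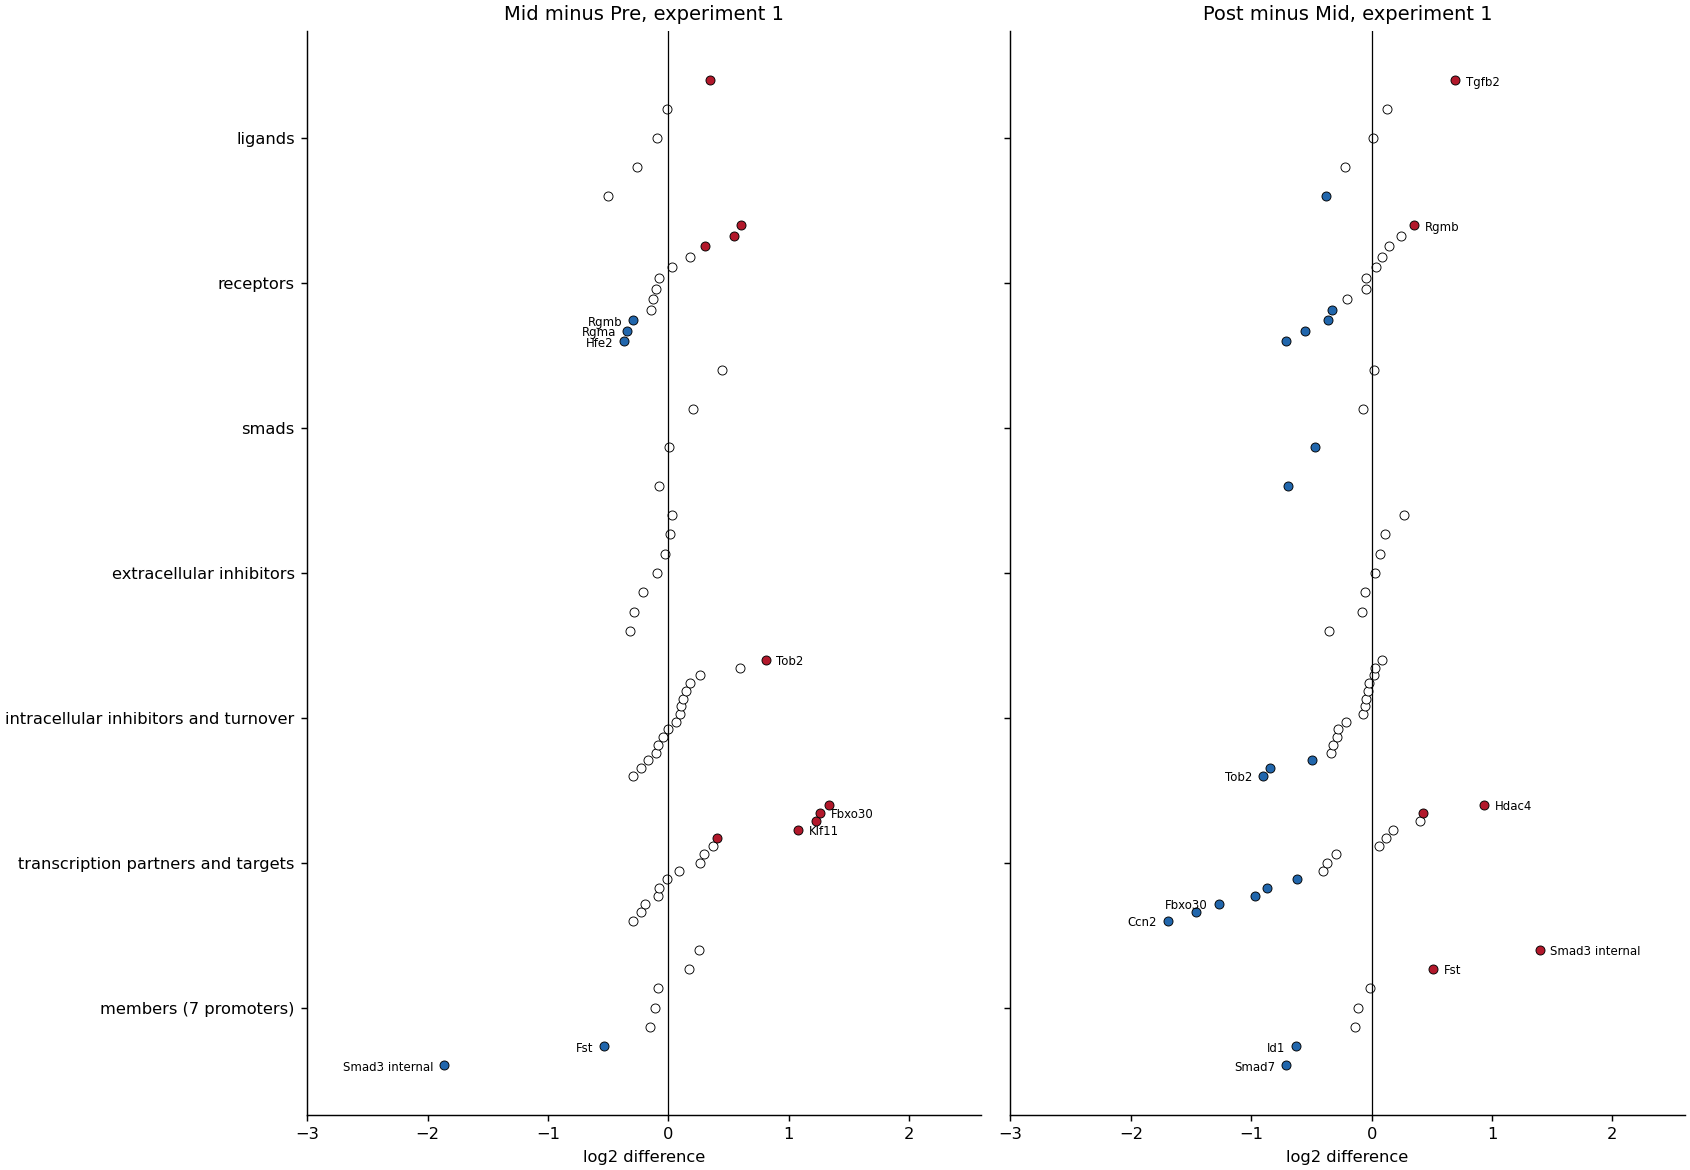
log2 difference of Mid minus Pre (left) and Post minus Mid (right) in experiment 1 for the most active promoter of each of 59 further pathway genes, by list, and for the 7 promoters described here; filled circles passed an adjusted p of 0.05, red higher and blue lower in the first group, and of the called pathway genes up to 3 per direction with the lowest p are labelled. Both panels share the Mid libraries. Partners and targets of SMADs lie at 5 higher and 0 lower on the left and at 2 higher and 6 lower on the right, and the internal Smad3 promoter has the greatest difference of the left panel.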

How the data were processed

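Soleus RNA of 38 mice was profiled by nAnT-iCAGE, with 28 libraries in experiment 1 and 10 in experiment 2, grouped by the sample labels. The submitters' processing notes name BWA, HISAT2 and the build mm10, with versions not given in the sources used here, and the authors clustered start sites with PromoterPipeline. The counts are tags per cluster and library, deposited by the authors without normalization. The deposited TPM values are these counts scaled by the authors per 1000000 tags, and were used to find the most active promoter of a gene and to rank mean levels over all libraries.

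Counts of all clusters with any tag were fitted in R 4.3.3 with edgeR 4.0.16 (TMM, quasi-likelihood F test, group as the only term), separately for the 28 and the 10 libraries, and p was adjusted by Benjamini-Hochberg. Displayed levels are CPM with TMM factors (0.679 to 1.21 in experiment 1). Log2 levels for correlations used a prior count of 2. Shares were compared by exact permutation in Python 3.11.15. On simulated counts of experiment 1, 98.0% of 200 promoters changed by a log2 of 1 were recovered with 9 false calls, and 64.0% with 8 false calls for experiment 2. The simulation gave all promoters the same spread, drew the changed ones from those with more tags and left all others unchanged. The data differ in these points, so the rates need not hold for them. No 2 libraries of a group were duplicates (chi-square per cluster at least 12.4 over 72 pairs). Intervals of shares cover counting error only.

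The members, gene lists and motifs were chosen with earlier results of these data known. Named were all members and, of the pathway lists, up to 3 called genes with the lowest p per direction, in the comparisons other than the pairs and the experiment contrast added later. A gene of these lists that the rule picks in some comparisons is not reported here. Alternatives were the likelihood ratio test, DESeq2 1.42.0, other scalings, filterByExpr, other sets of libraries, a replicate block and each library left out. Lane as a term, the share of Smad3 tags, further pairs of groups and the level difference between experiments were added after seeing the data. Tags of near-identical gene copies can be mapped to the wrong copy. Metabolic recordings were not analysed here.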

Additional observations from a re-analysis of the deposited data

Results flagged for a closer look

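Among 49 groups of 4 to 10 libraries in which each promoter was checked for a library far from the rest by Dixon's criterion, 2 held one, and chance alone gives about 1 in 20. At the internal Smad3 promoter, Mid replicate 10 of experiment 2 had 4.679 CPM, above the 2.15 to 2.79 CPM of the other 4 Mid libraries and below the Pre and Post libraries. At Id1, HiT replicate 1 had 4.96 CPM, below the 6.48 to 6.56 CPM of the other 3 HiT libraries.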

How the results depend on the processing

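Over the 9 other settings of each fit, 1087 of 1155 log2 differences kept direction and side of the threshold, 33 lost and 35 gained a call, and 0 called ones changed sign (21 uncalled ones did). With 1 library left out these numbers were 1271, 58, 29 and 0 of 1358, with 62 uncalled changes of sign. The reversal of the internal Smad3 promoter and of Fst in experiment 1 was called throughout.

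Counts of called promoters changed by over 1.5 times as follows; the cause was not tested. With library size only, the count fell from 2 to 1 for Mid against HiT, from 1 to 0 for Dep against Mid and from 4 to 2 for Dep against Pre, and this scaling shifted the median of all promoters by up to -0.225 on the log2 scale (Dep minus Fed). For HiT against Pre it rose from 2 to 4 with DESeq2 size factors, upper-quartile scaling, DESeq2 or a fit of the compared groups, as Fst and Id3 passed. A fit of the compared groups gave 0 for Dep against Mid. All 38 libraries with experiment as a term gave 2 for Mid against Pre, beside 1 in experiment 2. That fit estimates a common difference for both experiments, so it is no result of experiment 2 alone. In experiment 2, lane as a term gave 1 in place of 3 for Post against Mid. Of the pairs added after seeing the data, Post against HiT had 0 in place of 1 with library size only, the compared groups or the block, 2 with DESeq2 and 4 with all 38 libraries. Dep against HiT had 2 in place of 4 with library size only or the block, and Post against Fed 3 in place of 0 with the likelihood ratio test or DESeq2. With 1 library left out, the counts ran from 0 to 2, 2 to 4 and 0 to 4 for these pairs, and from 0 to 3 for Mid against HiT, 0 to 1 for Dep against Mid, 1 to 3 for HiT against Pre, 0 to 1 for Mid against Pre in experiment 2 and 1 to 2 for Post against Mid in experiment 2.

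Replicate numbers do not pair these mice: over 60 pairs of same-numbered libraries the correlation of deviations ran from -0.627 to 0.438 (median -0.0806), and 16 were over 0.1. Under the replicate block, Mid against HiT lost both its calls, the internal Smad3 promoter (log2 difference -0.61, adjusted p = 0.084 by edgeR) and Smad7, and gained Smad6, which gave 1, and the count was 0 for Dep against Mid. The low tag numbers of the Mid libraries (38 to 89 in experiment 1 and 20 to 77 in experiment 2) limit the precision of the internal Smad3 promoter, and experiment 2 is shallower throughout.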
